A study of Mus musculus with 19 samples.

Results

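The lungs of mice given the middle dose of a mixture of polycyclic aromatic hydrocarbons (PAHs) were compared directly with those of mice given the low dose, without use of the vehicle controls. The members were chosen by their titles alone: 5 arrays titled D2 against 4 titled D1, which is 9 of the 19 arrays of the study. All 9 mice were male MutaMouse animals (a transgenic strain on a BALB/C-DBA/2 background), about 12 weeks old and housed singly. Each received the 8PAH mixture, a blend of PAHs dissolved in olive oil, by gavage for 28 days, and the lung was taken 72 h after the last dose. D1 mice received 15 mg and D2 mice 30 mg benzo[a]pyrene (BaP) equivalents per kg body weight per day. On each array lung RNA was labelled with Cy5 (red) and set against Universal Mouse Reference RNA, a pool from cell lines, labelled with Cy3 (green). A value below is the log2 ratio of red over green of a mouse unless it is called a difference, and a difference is the D2 mean minus the D1 mean of these log2 ratios. Each mouse was a separate animal, so the tests measure the spread between these 9 mice, and between mice of the other groups too where a fit is said to include them. The study's methods name the right lobe of the lung as the tissue collected. Its cell types were not separated, so that fewer cells of a type and less RNA per cell cannot be told apart.

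PAHs bind the aryl hydrocarbon receptor (AHR), a transcription factor that pairs with ARNT and binds DNA at elements with the core GCGTG. Its best known targets are the cytochrome P450 genes Cyp1a1 and Cyp1b1, whose enzymes oxidise PAHs, partly to products that bind DNA. DNA damage activates p53, which induces Cdkn1a, a brake on the cell cycle, and Mdm2, its own inhibitor. The comparison asks how lung transcripts differed between a dose and its double, in tissue where both groups had been exposed.

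The label of the tissue was borne out by its markers. Sftpc (surfactant, alveolar type 2 cells) lay at 6.98 to 8.30, Scgb1a1 (club cells) at 7.09 to 8.70 and Ager (alveolar type 1 cells) at 5.29 to 6.25, and each was well above background in all 9 mice. On every slide the D1 array lay in column 2 and the D2 array in column 3, so that array column and dose cannot be told apart. D1 mice 21 and 22 and D2 mice 26 and 28 shared slide 1, D1 mouse 24 and D2 mice 29 and 30 slide 2, and D1 mouse 25 and D2 mouse 23 slide 3. D2 mouse 23 carries a number from the D1 series, and the study's methods give the low dose 1 more and the middle dose 1 fewer mouse than the titles do. It was kept as labelled, and results are also given without it. D2 mouse 28 stood apart from the other D2 mice in transcripts of other tissues described at the end. D1 mouse 24 in heart transcripts and D1 mouse 21 in liver transcripts stood apart from the other D1 mice in the same way. D2 mouse 28 had the lowest array weight (0.793, against 0.863 to 1.27 in the others), and results are given without it too.

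With all 9 mice, no probe passed the test (limma, p adjusted after Benjamini-Hochberg to at most 0.05, with a difference of at least 1.5-fold). Among 30240 probes, 0 were called (0%), 0 passed on adjusted p alone, and the lowest adjusted p was 0.573. At an unadjusted p under 0.05 there were 2390 probes (7.90% of those tested), 968 higher in D2 (3.20%) and 1422 lower (4.70%). Differences were small: 86 probes differed by 1.5-fold or more, the 1st and 99th percentiles were -0.42 and 0.36, and the extremes were -1.33 and 1.67. The precision rested on the number of mice and on the spread between them. The 95% interval of a difference had a median half-width of 0.23, and 99.1% of intervals lay wholly within a 2-fold difference either way, 92.3% within 1.5-fold. A miss of the threshold therefore does not show that the doses acted alike on a given gene, and the interval is given for each gene below.

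**Figure D1:**
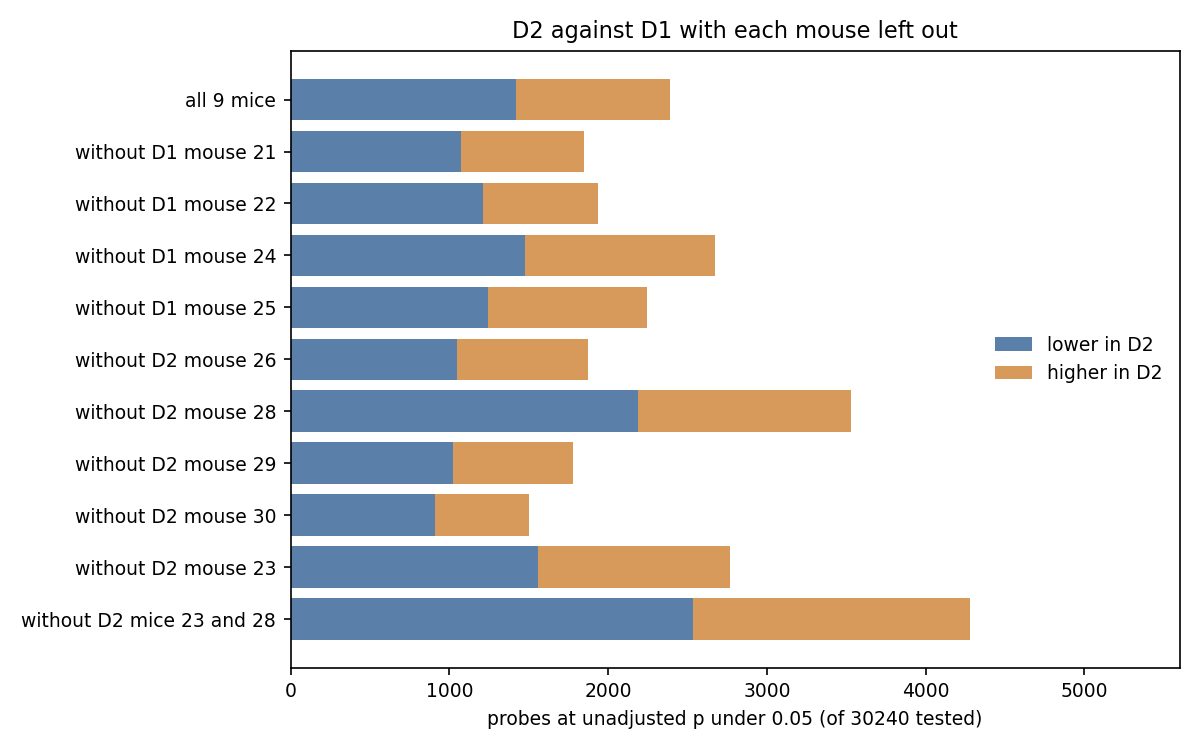
Probes at an unadjusted limma p under 0.05 for D2 against D1 with all 9 mice, with each mouse left out, and with D2 mice 23 and 28 both left out. Bars start at 0 and stack probes lower in D2 and higher in D2. The total is 2390 with all mice, 1499 without D2 mouse 30, 3530 without D2 mouse 28 and 4278 without D2 mice 23 and 28.

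Leaving out D2 mouse 28 raised the number of probes at an unadjusted p under 0.05 to 3530 (11.7%), with 1340 higher (4.43%) and 2190 lower (7.24%). No probe was called, and the lowest adjusted p was 0.111. Without D2 mouse 23 there were 2770 such probes (9.16%), 1211 higher (4.00%) and 1559 lower (5.16%), and no call. Without both mice there were 4278 (14.1%), 1742 higher (5.76%) and 2536 lower (8.39%), no call, and a lowest adjusted p of 0.0603. The surplus of lower over higher probes depended on the scaling. Lower probes made up 59.5% after loess, 49.0% from the scanner software's processed signals, and 93.8% when each array was only centred on its median, where 209 probes (0.691%) remained, 13 higher (0.0430%) and 196 lower (0.648%).

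Genes were grouped in 37 lists, each with 1 probe per gene, and 583 listed genes could be tested. None of them was called with all 9 mice, so a list is described by its members at an unadjusted p under 0.05 and by its median difference, beside a median of 0.0005 over all probes tested. Centring alone gave lower counts in most lists, and its counts are given where a list is described at length.

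Of 16 AHR target genes, 12 were tested, 3 lay higher in D2 at an unadjusted p under 0.05, none lower, and 10 had a positive difference. Over all probes 3.20% lay higher. Cyp1a1 had the largest positive difference of all 30240 probes, 1.67 (95% interval 0.40 to 2.95), which is 3.19-fold. The median over the list was 0.14, and 0.15 without D2 mouse 28, 0.11 without D2 mouse 23 and 0.14 without both. With centring alone the count was 1, and without D1 mouse 25 it was 2.

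The promoter windows of the 2 CYP1 genes are shown because both hold the letters of the AHR core. AHR elements of Cyp1a1 are best known from its enhancer upstream, outside such a window. Both were taken from RefSeq (GRCm38.p6) and run from 250 bases before to 50 bases after the annotated start. Capitals mark GCGTG, which reads CACGC where it lies on the other strand. The Cyp1a1 window is chr9:57697363-57697662 on the plus strand and the Cyp1b1 window chr17:79715012-79715311 on the minus strand, each with 1 match.
Cyp1a1: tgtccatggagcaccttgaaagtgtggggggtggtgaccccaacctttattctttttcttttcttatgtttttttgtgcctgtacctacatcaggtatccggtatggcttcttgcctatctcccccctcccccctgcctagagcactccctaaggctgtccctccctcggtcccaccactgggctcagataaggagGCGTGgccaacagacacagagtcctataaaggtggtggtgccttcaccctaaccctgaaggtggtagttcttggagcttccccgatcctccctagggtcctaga
Cyp1b1: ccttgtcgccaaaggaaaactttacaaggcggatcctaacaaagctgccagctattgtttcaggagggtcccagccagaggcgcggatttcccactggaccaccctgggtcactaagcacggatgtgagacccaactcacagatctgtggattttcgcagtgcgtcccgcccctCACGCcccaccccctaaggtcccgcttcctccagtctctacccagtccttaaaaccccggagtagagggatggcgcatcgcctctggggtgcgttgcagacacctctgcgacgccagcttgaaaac
Of 9 tested AHR targets with a window, 6 (66.7%) held GCGTG on either strand, beside 32.4% of all 32851 RefSeq windows. A gene with several windows was counted when any of them held the letters. The match is a description of the sequence and not of receptor binding.

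Cyp1a1, which encodes a cytochrome of the lung that oxidises these compounds, lay at 2.48, 1.54, 4.01 and 0.43 in D1 mice 21, 22, 24 and 25 and 4.67, 2.99, 4.25, 4.05 and 2.98 in D2 mice 26, 28, 29, 30 and 23. The same order of mice is used for every gene below. The groups overlapped: D1 mouse 24 lay among the D2 mice, while D1 mouse 25 was the lowest of all. The limma adjusted p was 0.578, and a two-sided exact permutation test gave p = 0.0635. That test has 126 splits of the mice and cannot go below 0.0159, and it was run on 22 genes chosen by name, without adjustment for their number. Within slides 1, 2 and 3 the difference was 1.82, 0.14 and 2.56, so that it was near 0 on slide 2. Without D2 mouse 28 it was 1.87, without D2 mouse 23 1.88, and without both 2.21 (limma adjusted p = 0.163).

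Cyp1b1, the related enzyme found in many tissues outside the liver, lay at -0.69, -0.49, -0.003 and -0.36 in D1 and 0.78, 0.02, 0.58, 0.55 and -0.07 in D2. D2 mouse 23 lay below D1 mouse 24, and the other 4 D2 mice lay above all D1 mice. The difference was 0.76 (95% interval 0.35 to 1.16; limma adjusted p = 0.573; two-sided exact permutation p = 0.0317). It was positive on each slide (0.99, 0.56 and 0.28), 0.84 without D2 mouse 28 and 0.87 without D2 mouse 23. Without both it was 1.02 (limma adjusted p = 0.071, and 0.0372, a call, when the spread was estimated over all 4 dose groups).

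Among the other members, Arnt, the partner of AHR, was the only one whose groups did not overlap, at -0.20, 0.12, 0.14 and -0.04 in D1 and 0.36, 0.17, 0.29, 0.44 and 0.29 in D2. Its difference was 0.31 (95% interval 0.10 to 0.51), and over all probes 278 (0.919%) did not overlap with D2 higher. Ahrr, the repressor induced by the receptor itself, differed by 0.29 (-0.10 to 0.67) and Nqo1, a quinone reductase, by 0.17 (-0.15 to 0.49). Ahr itself differed by -0.05 and Tiparp by 0.06. Aldh3a1, an aldehyde dehydrogenase, had the lowest difference of the list, -0.24 (-0.82 to 0.34). Cyp1a2, Ugt1a7c, Gsta1 and Cyp2a5 were not tested. Of the wider list of xenobiotic metabolism, 39 genes were tested, with 3 higher, 1 lower (3.20% and 4.70% over all probes) and a median of 0.04. Without D1 mouse 25 none was higher and the median was -0.01, and without D1 mouse 21, D1 mouse 22, D2 mouse 29 or D2 mouse 30 the higher count was 1. Of 13 NRF2 targets 1 was higher, and none without D1 mouse 21, D1 mouse 22 or D2 mouse 23, with a median of 0.09.

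**Figure D2:**
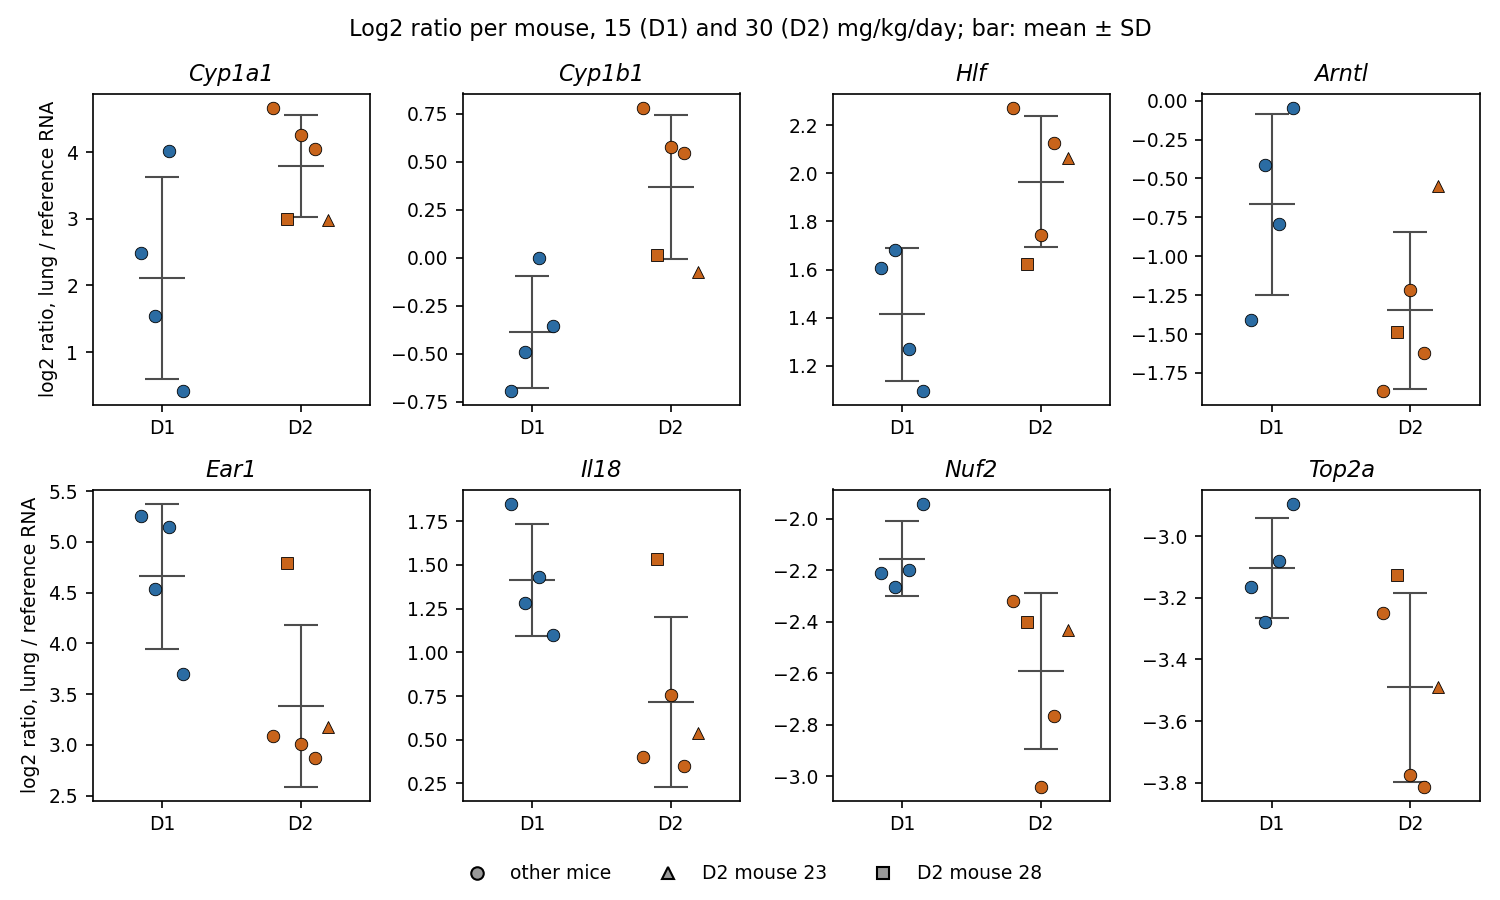
Log2 ratio of lung over reference RNA in each mouse for 8 genes, D1 and D2 side by side, with the mean and SD as a bar. Squares mark D2 mouse 28 and triangles D2 mouse 23, and each panel has its own scale. For Ear1 and Il18 the square lies among the D1 mice, at 4.796 and 1.54, away from the other D2 mice.

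Most repressor and output genes of the circadian clock had a positive difference, and Arntl of the activating limb a negative one. The mammalian clock is a loop in which Arntl (BMAL1) and Clock drive the Per, Cry and Nr1d genes at E boxes, and the products of these repress their own drivers. Of 13 repressor and output genes 12 were tested: 5 lay higher in D2 at an unadjusted p under 0.05, none lower, and 11 had a positive difference, with a median of 0.25. Over all probes 3.20% lay higher. The 5 were Hlf (0.55), Dbp (0.52) and Tef (0.51), which form 1 family of transcription factors driven by the clock, Per3 (0.44) and Bhlhe40 (0.28). The median within the slides was 0.19, 0.20 and 0.35. It was 0.27 without D2 mouse 28, 0.29 without D2 mouse 23 and 0.38 without both. The higher count was 6 each time, where 4.43%, 4.00% and 5.76% of all probes lay higher. Without D1 mouse 25 the count was 2, and with centring alone it was 0.

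Hlf lay at 1.61, 1.68, 1.27 and 1.097 in D1 and 2.27, 1.62, 1.75, 2.12 and 2.06 in D2, a difference of 0.55 (95% interval 0.22 to 0.89). D2 mouse 28 lay within the range of D1 and the other D2 mice above it. Dbp lay at 2.76, 1.89, 2.25 and 1.75 in D1 and 2.86, 2.76, 2.45, 2.86 and 2.49 in D2, a difference of 0.52 (0.13 to 0.92; two-sided exact permutation p = 0.0635), and its other probe differed by 0.64. D1 mouse 21 overlapped with the D2 mice. Per2 differed by 0.27 (-0.04 to 0.59). The letters CACGTG stood in the windows of 4 of 10 tested members with one (40.0%), beside 7.2% of all windows. This share, too, describes the sequences of the list and not the difference between the doses.

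A further list held activators of the clock and Nfil3, itself a repressor. Of its 6 tested genes 1 was higher and 2 were lower, where 3.20% and 4.70% of all probes were, and the median was -0.09. With single mice left out the higher count was 0 or 1 and the lower 1 or 2. Arntl lay at -1.41, -0.41, -0.80 and -0.05 in D1 and -1.86, -1.49, -1.22, -1.62 and -0.55 in D2. The difference was -0.68 (95% interval -1.29 to -0.07; two-sided exact permutation p = 0.127), with overlap of D2 mouse 23 and D1 mouse 21, and -0.76, -0.62 and -0.50 within the slides. The other lower gene, Nfil3, which competes with the Dbp family for its sites, differed by -0.57 (-0.93 to -0.21), and Rora, an activator of Arntl, by 0.30 (0.04 to 0.57).

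The p53 targets showed no common direction. Of 33 targets 31 were tested, 2 were higher at an unadjusted p under 0.05, 2 lower, and the median was 0.03. The higher ones were Ddb2 (0.18), which recognises damaged DNA, and Sesn2 (0.22), a stress-induced regulator of growth. The lower ones were Ckap2 (-0.52), a protein of the mitotic spindle, and Fas (-0.27), the death receptor. Over all probes 3.20% lay higher and 4.70% lower. The higher count was 6 without D2 mouse 23 (4.00% of all probes) and 5 without D2 mice 23 and 28 (5.76%). It was 3 without D1 mouse 24, 1 without D1 mouse 21 or D2 mouse 28, and 0 without D1 mouse 22, D2 mouse 26 or D2 mouse 30. The lower count was 1 or 2 with any single mouse left out and 3 without D2 mice 23 and 28, and with centring alone both counts were 0.

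Cdkn1a, the cell cycle inhibitor best known as a p53 target, lay at 0.72, 1.04, 1.504 and 1.20 in D1 and 1.15, 1.41, 1.36, 0.95 and 0.75 in D2. The groups overlapped throughout, and the difference was 0.01 (95% interval -0.35 to 0.37; two-sided exact permutation p = 0.984). Ccng1 differed by 0.04 (-0.16 to 0.23) and Mdm2 by 0.12 (-0.14 to 0.38). None of these 3 intervals reached a 1.5-fold difference either way. Gdf15, a secreted stress factor, differed by -0.23 (-0.70 to 0.25), with D2 mouse 23 lowest at -0.35. Bax, which permeabilises mitochondria, had the highest difference of the list, 0.49 (-0.02 to 1.00). Of 26 apoptosis genes tested none was higher and 1 lower (3.20% and 4.70% over all probes), with a median of -0.01.

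**Figure D3:**
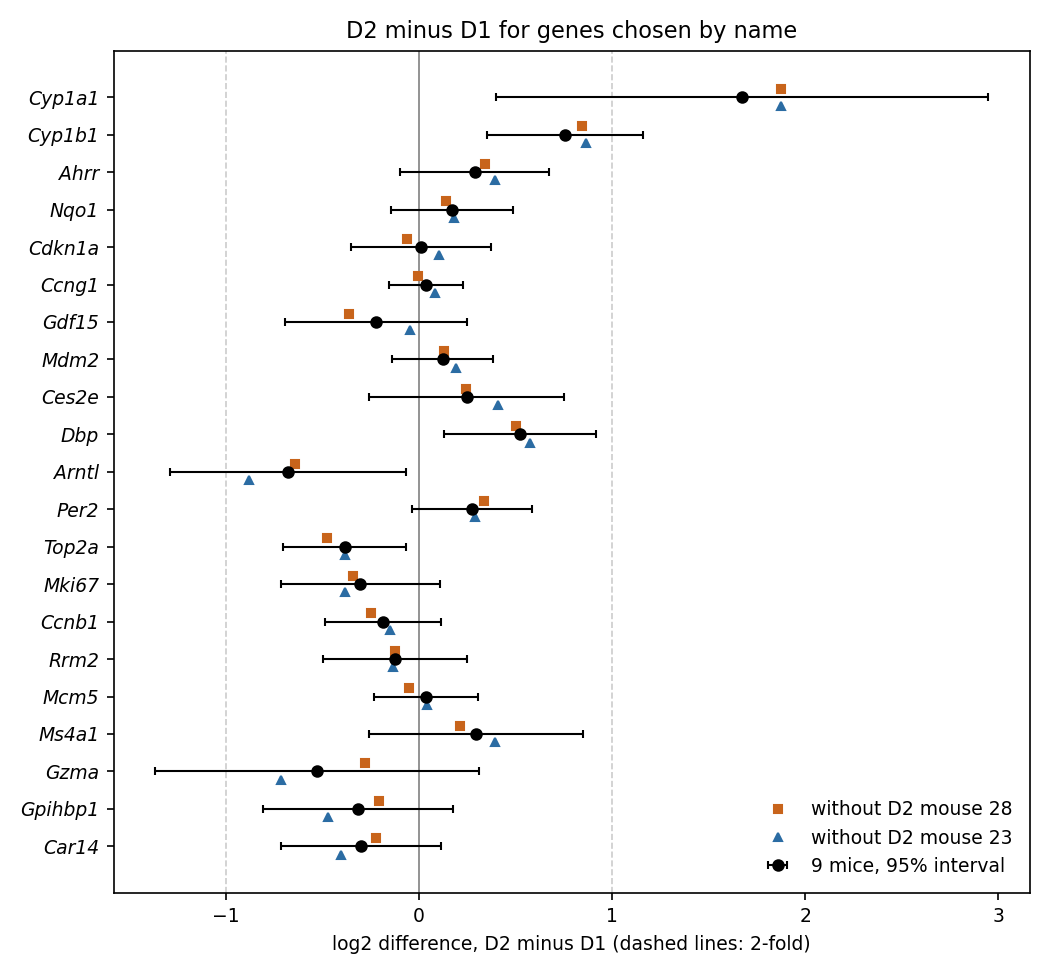
Log2 difference (D2 minus D1) of genes chosen by name, with the 95% interval of the 9-mouse limma fit as a bar, and the same difference without D2 mouse 28 (squares) and without D2 mouse 23 (triangles). Dashed lines mark 2-fold. Cyp1a1, Cyp1b1, Dbp, Arntl and Top2a are the genes shown whose interval does not include 0, and no gene passed the adjusted threshold.

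The median difference of mitotic genes was negative on slides 2 and 3 and not on slide 1. Of 44 genes of mitosis and G2, 38 were tested: 9 lay lower at an unadjusted p under 0.05, none higher, and 36 had a negative difference, with a median of -0.26. Over all probes 4.70% lay lower. Within the slides the median was 0.09, -0.59 and -0.47. With single mice left out it ran from -0.40 without D1 mouse 22 to -0.16 without D1 mouse 25, and it was -0.33 without D2 mouse 28, -0.29 without D2 mouse 23 and -0.39 without both. The count of lower genes moved with single mice. It was 24 without D1 mouse 22, 20 without D2 mouse 28 and 6 without D1 mouse 24, where 1212, 2190 and 1475 of 30240 probes lay lower. It was 3 without D1 mouse 25, D2 mouse 29 or D2 mouse 30, where 1245, 1024 and 912 probes lay lower. It was 9 without D2 mouse 23 (5.16% of all probes), 24 without D2 mice 23 and 28 (8.39%), and 0 with centring alone (0.648%).

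Nuf2, a kinetochore protein, was the member with the lowest difference and the only one without overlap, at -2.21, -2.27, -2.20 and -1.94 in D1 and -2.32, -2.40, -3.04, -2.77 and -2.43 in D2 (-0.44, 95% interval -0.75 to -0.13). Over all probes 362 (1.20%) did not overlap with D2 lower. Top2a, the topoisomerase that untangles chromosomes, lay at -3.17, -3.28, -3.08 and -2.90 in D1 and -3.25, -3.13, -3.78, -3.81 and -3.49 in D2. D2 mice 29, 30 and 23 lay below all D1 mice, and D2 mice 26 and 28 within their range. The difference was -0.39 (-0.70 to -0.07; two-sided exact permutation p = 0.0794). The other 7 members lower at an unadjusted p under 0.05 were Kif20a (-0.43), Cenpa (-0.41), Cdca3 (-0.40), Spc25 (-0.38), Cdca8 (-0.36), Aurka (-0.31) and Racgap1 (-0.30), of the spindle, the centromere and the division plane. Mki67, the proliferation marker, differed by -0.30 (-0.72 to 0.11) and Ccnb1, the mitotic cyclin, by -0.19 (-0.49 to 0.11).

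The Top2a window (RefSeq, GRCm38.p6, chr11:99024140-99024439, minus strand) is shown as an example of the letters that many members share. Capitals mark the 2 matches to TTTGAA, the core of the cell cycle element, one of them read as TTCAAA.
Top2a: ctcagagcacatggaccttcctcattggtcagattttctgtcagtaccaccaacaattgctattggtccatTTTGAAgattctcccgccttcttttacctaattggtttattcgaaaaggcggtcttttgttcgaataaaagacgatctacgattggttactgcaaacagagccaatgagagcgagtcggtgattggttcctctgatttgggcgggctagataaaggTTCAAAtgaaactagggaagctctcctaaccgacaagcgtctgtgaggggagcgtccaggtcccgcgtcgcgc
TTTGAA stood in the windows of 23 of 33 tested members with one (69.7%), beside 17.9% of all windows. CCAAT, the box bound by NF-Y, stood in 25 of 33 (75.8%), beside 37.4% of all. Both were searched on both strands, and neither contains the other. As above, a gene with several windows was counted when any of them held the letters. The shares describe the sequences of a list of mitotic genes and not the difference between the doses.

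DNA replication genes were described apart from those of mitosis. Of 36 genes of S phase 33 were tested: 2 were higher at an unadjusted p under 0.05, among them Mcm4 (0.24) of the replicative helicase, none was lower, and the median was 0.07, where 3.20% of all probes lay higher. The median was 0.01 without D2 mouse 28 or D1 mouse 22, 0.07 without D2 mouse 23 and -0.03 without D2 mice 23 and 28, and 0.24, -0.15 and -0.08 within the slides, so that its sign did not hold. The higher count was 3 without D2 mouse 29, 1 without D1 mouse 21, D1 mouse 22, D2 mouse 26 or D2 mouse 28, and 0 with centring alone. Mcm5 differed by 0.04 (-0.23 to 0.31) and Rrm2, the ribonucleotide reductase subunit, by -0.13 (-0.50 to 0.25). The difference between the 2 lists was not tested.

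Alveolar macrophage genes were the group with the lowest median among the immune lists. These are the resident phagocytes of the air spaces, which clear inhaled matter and surfactant. Of 18 markers 17 were tested: 8 lay lower in D2 at an unadjusted p under 0.05, none higher, and 16 had a negative difference, with a median of -0.34, where 4.70% of all probes lay lower. The median was -0.41, -0.57 and -0.23 within the slides, -0.47 without D2 mouse 28, -0.29 without D2 mouse 23 and -0.37 without both. The lower count was 8, 6 and 9 in these 3 cases, where 7.24%, 5.16% and 8.39% of all probes lay lower. Over the mice left out singly it ran from 5 without D1 mouse 21 to 11 without D1 mouse 25, where 1076 and 1245 of 30240 probes lay lower. It was 8 with centring alone (0.648% of all probes) and 3 from the processed signals (1158 of 30240 probes).

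Ear1, a secreted ribonuclease, lay at 5.26, 4.54, 5.15 and 3.70 in D1 and 3.09, 4.796, 3.01, 2.87 and 3.17 in D2. D2 mice 26, 29, 30 and 23 lay below all D1 mice, and D2 mouse 28 among them. The difference was -1.28 (95% interval -2.13 to -0.42) and -0.96, -2.21 and -0.53 within the slides. Ear10 lay at 5.61, 4.84, 5.61 and 4.03 in D1 and 3.39, 4.98, 3.66, 3.69 and 3.62 in D2, in the same arrangement, with a difference of -1.16 (-1.93 to -0.38). Ear1, Ear10 and Ear2 (-0.32) are close paralogs, and how far their probes tell them apart is uncertain. Il18, a cytokine of macrophages and epithelium, lay at 1.85, 1.28, 1.43 and 1.099 in D1 and 0.40, 1.54, 0.75, 0.35 and 0.54 in D2 (-0.70, -1.19 to -0.21), again with D2 mouse 28 alone among the D1 values.

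The other members lower at an unadjusted p under 0.05 were Chil3 (-0.95), a chitinase-like protein, Siglecf (-0.91), the surface lectin that marks these cells, Fabp1 (-0.79) and Lpl (-0.40) of lipid handling, and Krt79 (-0.29). Marco, a scavenger receptor, stood at 5.73, 5.42, 5.52 and 5.16 in D1 and 5.65, 5.67, 5.72, 5.08 and 3.45 in D2, so that D2 mouse 23 lay far below every other mouse. Mgll, a lipase, had the highest difference, 0.04. The median was -0.09 for 23 neutrophil genes (none higher, 2 lower) and -0.001 for 13 genes of monocytes and dendritic cells (1 higher, 1 lower), where 3.20% of all probes lay higher and 4.70% lower. With single mice left out it ran from -0.19 without D2 mouse 26 to -0.02 without D2 mouse 28 in neutrophil genes, and from -0.05 without D2 mouse 28 to 0.04 without D2 mouse 29 in those of monocytes and dendritic cells. The lower count of neutrophil genes was 0 without D1 mouse 21, 3 without D1 mouse 25 and 4 without D2 mouse 26. In these fits 1076, 1245 and 1051 of 30240 probes lay lower.

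**Figure D4:**
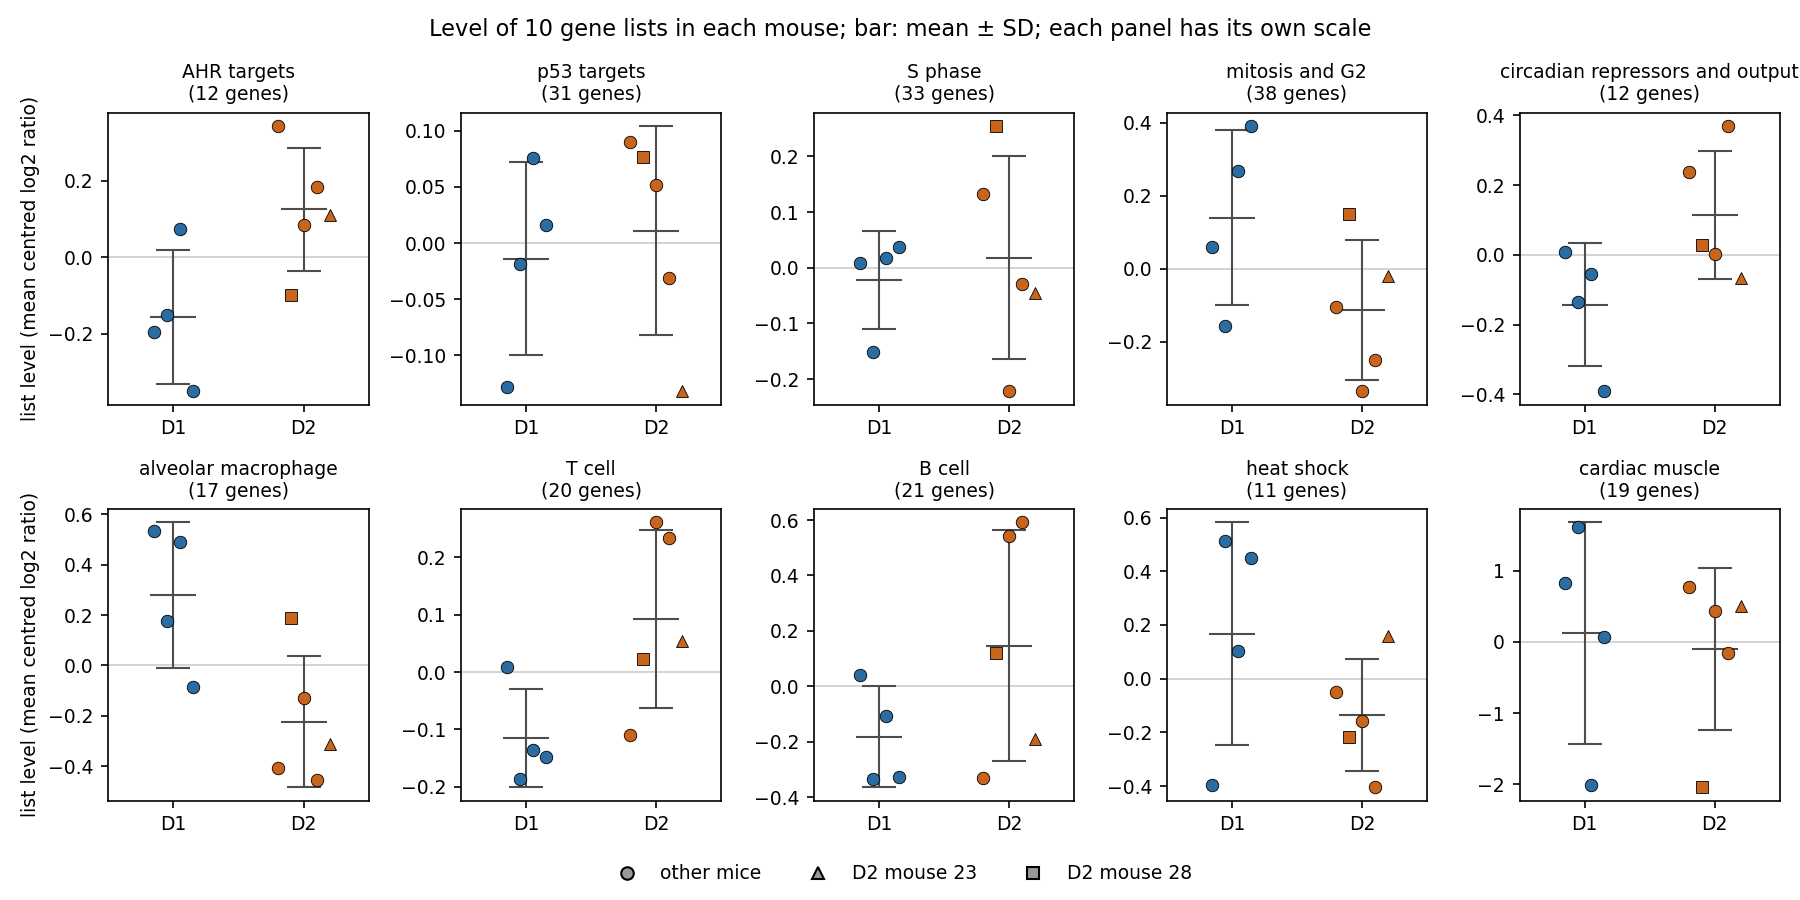
Level of 10 gene lists in each mouse, as the mean over tested members of the log2 ratio after each gene was centred on the 9 mice, with the group mean and SD as a bar. Squares mark D2 mouse 28 and triangles D2 mouse 23, and each panel has its own scale. In the alveolar macrophage panel the D1 mice lie at -0.09 to 0.53 and the D2 mice at -0.46 to 0.19, and in the cardiac panel D1 mouse 24 and D2 mouse 28 lie at -2.01 and -2.04.

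Nearly all T cell genes had a positive difference. Of 24 genes 20 were tested: 9 lay higher at an unadjusted p under 0.05, none lower, and 19 had a positive difference, with a median of 0.17, where 3.20% of all probes lay higher. Among the 9 were Ccr7 (0.51), Lef1 (0.26) and Tcf7 (0.36), which mark naive cells, and Lck (0.34), Cd3d (0.39), Cd28 (0.33), Cd5 (0.34) and Cd6 (0.26) of the antigen receptor and its signalling. Tcf7, a transcription factor of naive and memory cells, lay at -1.34, -1.501, -1.22 and -1.44 in D1 and -1.08, -1.08, -0.93, -0.96 and -1.03 in D2 (95% interval 0.18 to 0.54), with all D2 mice above all D1 mice. Of the 20 tested, 4 did not overlap in this way, Lef1 and Cd28 among them, where 0.919% of all probes did not. The antigen receptor chain Cd3e differed by 0.02 and the coreceptors Cd4 by 0.17 and Cd8a by 0.15.

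The T cell list, too, had its highest levels in D2 mice 29 and 30, 0.26 and 0.23, against -0.19 to 0.05 in the other 7 mice. Its median was 0.04, 0.39 and 0.23 within the slides, 0.21 without D2 mouse 28, 0.19 without D2 mouse 23 and 0.23 without both. The higher count was 7, 8 and 7 in these cases, where 4.43%, 4.00% and 5.76% of all probes lay higher. It was 6 without D1 mouse 22, D1 mouse 25, D2 mouse 29 or D2 mouse 30, where 727, 998, 755 and 587 of 30240 probes did. With centring alone it was 0 (0.0430% of all probes). Of 11 thymocyte genes 4 could be tested, 2 with a positive and 2 with a negative difference, and Rag1 and Ptcra were too dim. The part of thymus tissue in the T cell values was not tested.

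All tested B cell genes had a positive difference, and their level was highest in 2 D2 mice. Of 24 genes 21 were tested, 3 lay higher at an unadjusted p under 0.05, namely Pou2af1 (0.54), Blnk (0.48) and Vpreb3 (0.43), where 3.20% of all probes lay higher, and the median was 0.35. The list level was 0.54 in D2 mouse 29 and 0.59 in D2 mouse 30, and -0.34 to 0.12 in the other 7 mice. The median was 0.76 on slide 2, where these 2 mice lay, and 0.06 and 0.07 on slides 1 and 3. The higher count was 4 without D2 mouse 28 (4.43% of all probes), 6 without D2 mouse 23 (4.00%) and 8 without both (5.76%). It was 12 without D2 mouse 26 and 5 without D1 mouse 24, where 822 and 1195 of 30240 probes lay higher. It was 2 without D1 mouse 22 or D2 mouse 29, 1 without D2 mouse 30, and 0 without D1 mouse 25 or with centring alone. Of 10 red blood cell genes 7 were tested, and all had a positive difference (1 at an unadjusted p under 0.05, median 0.22), with levels of 0.26 and 0.51 in D2 mice 29 and 30, -0.24 to 0.06 in the other D2 mice, 0.22 in D1 mouse 24 and -0.37 to -0.12 in the other D1 mice. These levels were highest in the 3 mice of slide 2, within which the median was 0.01. Their part in the lymphocyte values was not tested.

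Ms4a1 (CD20), a B cell surface protein, differed by 0.29 (95% interval -0.26 to 0.85). Of 17 genes of natural killer and cytotoxic cells none was higher and 2 lower, where 4.70% of all probes were, with a median of -0.06. The list moved with single mice, from a median of -0.14 with 4 lower without D1 mouse 22 to 0.02 with 1 lower without D1 mouse 25, and with none lower without D1 mouse 21 or D2 mouse 26. Gzma, a granule protease, differed by -0.53 (-1.37 to 0.31).

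Among probes whose groups did not overlap, the largest positive difference was that of Dipk2a, 0.62 (95% interval 0.31 to 0.92), a secreted kinase-like protein. Slc6a6, the taurine transporter, lay at -0.10, -0.21, -0.08 and -0.26 in D1 and 0.30, 0.06, 0.55, 0.55 and 0.34 in D2 (0.52, 0.29 to 0.76). Cd69, an early marker of activated lymphocytes, differed by 0.46, Srp54a by 0.44 and Dock2 by 0.44, although the other probe of Dock2 differed by 0.06. Probes assigned to Dcc (0.46), Rhox8 (0.44) and Gcm1 (0.44) gave nearly the same value in each mouse, with a largest gap of 0.114 and a lowest correlation over 9 mice of 0.988. Whether these 3 probes measure 3 transcripts is therefore uncertain. The limma adjusted p was 0.573 for each of these 8.

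Fpr2, a receptor for bacterial formyl peptides on myeloid cells, had the largest negative difference among probes without overlap. It lay at 2.79, 1.88, 2.66 and 1.86 in D1 and 1.55, 1.82, 1.61, 1.49 and 0.79 in D2, a difference of -0.85 (95% interval -1.35 to -0.34), with D2 mouse 23 the lowest. AU021092, a gene of undescribed function, lay at 2.67, 2.82, 2.65 and 2.69 in D1 and 1.96, 2.33, 1.58, 2.14 and 1.46 in D2 (-0.82, -1.16 to -0.47), with little spread in D1. Apbb1, an adaptor of the amyloid precursor protein, differed by -0.74, Cidec, a lipid droplet protein, by -0.69, and Cyp2b9, a cytochrome P450, by -0.68. For Cidec the difference was -1.03, -0.43 and -0.20 within the slides. D1 mouse 22 had its highest value, 1.43 against 0.52 to 0.76 in the other D1 mice, and also the highest level of the fat genes described below, 1.53. Tax1bp3 differed by -0.62 and Myzap, a protein of cell junctions, by -0.61. The limma adjusted p was 0.573 for each of these as well.

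Calls appeared when the spread was estimated over all 4 dose groups of the study and D2 mouse 28 was left out, an alternative chosen after the data were seen. In fits with D3, a pair of arrays numbered as 1 D3 mouse was averaged. That fit called 58 of 30179 probes (0.192%), 55 lower in D2 and 3 higher. With D2 mouse 28 kept, the fit over 4 groups called none, with 3028 probes at an unadjusted p under 0.05. Of the 55 lower probes, D2 mouse 28 lay within the range of D1 on 43 and above all other D2 mice on 54. These 58 were called without that mouse, so its distance from them is a description. With D2 mice 23 and 28 both left out the fit called 160 probes (0.530%), 141 lower and 19 higher, and all 58 were among them. D2 mouse 28 lay within the range of D1 on 118 of the 160, and D2 mouse 23 on 55. With only D2 mouse 23 left out it called none.

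In that fit without D2 mouse 28, Ear1 fell by 1.63 and Ear10 by 1.43 on the log2 scale (limma adjusted p = 0.0123 and 0.0205). Il18 fell by 0.91 (adjusted p = 0.0391), so that 3 of 17 tested alveolar macrophage genes were called, where 0.192% of all probes were. Ear1 and Ear10 are close paralogs, and how far their probes tell them apart is uncertain. AU021092 fell by 0.92, Apbb1 by 0.88 (adjusted p = 0.0111 for both), and Fpr1, a second formyl peptide receptor, by 0.93 (adjusted p = 0.0402). Vsir, an immune checkpoint receptor, fell by 0.86 on the called probe (adjusted p = 0.0121), whereas the other Vsir probe differed by 0.07 with all 9 mice. Snap47, a membrane fusion protein, fell by 0.84 (adjusted p = 0.0131). Cyp2b9 fell by 0.79 (adjusted p = 0.0124). None of the tested members of the AHR, p53, clock, mitosis, T cell and B cell lists was called there. With D2 mouse 23 left out as well, the fit over 4 groups called Cyp1b1 (1.02, limma adjusted p = 0.0372) of the AHR targets, Tef (0.70, adjusted p = 0.0433) and Nfil3 (-0.72, adjusted p = 0.0391) of the clock lists, Kif20a (-0.67, adjusted p = 0.0298) and Cdca3 (-0.59, adjusted p = 0.0329) of mitosis, and Ckap2 (-0.70, adjusted p = 0.0472) of the p53 targets. It also called Fabp1 (-1.16, adjusted p = 0.00877) beside the 3 alveolar macrophage genes above, and Des (-0.78, adjusted p = 0.0319), an intermediate filament of muscle. That fit called 0.530% of all probes and rested on 3 D2 mice.

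Of the 3 probes that rose, 1 belonged to Sptbn1 (0.61, limma adjusted p = 0.0281), a spectrin of the membrane skeleton, and 1 to Slc6a6 (0.60, adjusted p = 0.0332). The other probes of Sptbn1 differed by 0.08 and 0.19 with all 9 mice.

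**Figure D5:**
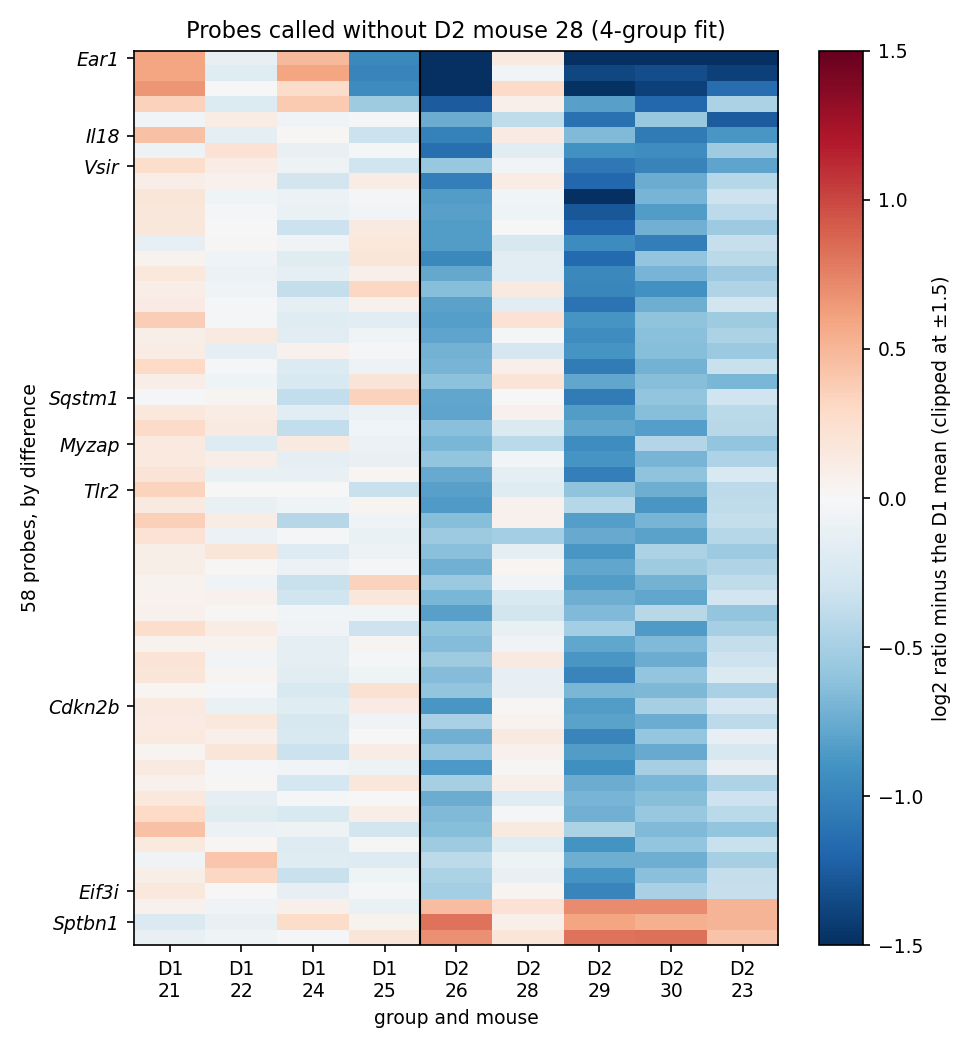
Log2 ratio minus the D1 mean in each of the 9 mice for the 58 probes called in the 4-group limma fit without D2 mouse 28, ordered by direction and difference. The colour scale is clipped at 1.5 either way, and some genes are labelled. D2 mouse 28 is paler than the other D2 mice on most of the 55 lower probes.

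Among lists of epithelial and structural cells, the median was 0.13 over 15 genes of alveolar type 2 cells, 0.16 over 9 of type 1 cells (0.01 without D1 mouse 22), 0.03 over 18 of motile cilia (-0.03 without D1 mouse 21, 0.12 without D2 mouse 28), 0.07 over 19 of endothelium (-0.01 without D1 mouse 22, 0.15 without D1 mouse 24) and 0.06 over 21 of collagen and fibroblasts, with at most 2 members in a direction at an unadjusted p under 0.05. With all 9 mice, 3.20% of all probes lay higher and 4.70% lower. Without D1 mouse 25, 7 collagen and fibroblast genes lay higher, with a median of 0.14, where 998 of 30240 probes lay higher. Without D1 mouse 24, 5 genes of type 2 cells and 3 of endothelium lay higher, where 1195 of 30240 probes did. Without D1 mouse 22, 3 of endothelium lay lower, where 1212 of 30240 probes did. All 6 mesothelial genes had a negative difference, none at an unadjusted p under 0.05, and the median was -0.21. It was 0.02 without D2 mouse 23, 0.04 without D1 mouse 22 and -0.01 without D1 mouse 25, and -0.03, 0.78 and -1.58 within the slides, so that its sign rested on single mice. Club cell genes varied between mice, with levels of -1.16 to 0.71 and a median of -0.06 over 10 genes, which was -0.71, 0.63 and 0.26 within the slides, and between -0.41 without D1 mouse 24 and 0.24 without D2 mouse 30. The median over 9 genes of smooth muscle and pericytes was -0.08. It was -0.29 with 5 lower without D2 mouse 23, where 5.16% of all probes lay lower. Gpihbp1, which anchors lipoprotein lipase on capillaries, differed by -0.32 (95% interval -0.81 to 0.18), Car14 by -0.30 (-0.71 to 0.11) and Ces2e, a carboxylesterase, by 0.25 (-0.26 to 0.75). Of 27 interferon-stimulated genes 1 was lower, where 4.70% of all probes were, with a median of -0.06 that lay between -0.13 without D2 mouse 29 and 0.03 without D2 mouse 26. The lower count was 5 without D1 mouse 21 and 4 without D2 mouse 29, where 1076 and 1024 of 30240 probes lay lower. None was lower without D1 mouse 22 or D1 mouse 25. Without D1 mouse 22, 2 were higher, where 727 of 30240 probes were. Of 18 PPAR and fatty acid genes 3 were lower, Lpl, Cd36 (-0.37) and Hadha (-0.25), where 4.70% of all probes lay lower, with a median of -0.22. Without D1 mouse 22 the median was -0.08 with 1 lower. Without D1 mouse 24 the lower count was 6, where 1475 of 30240 probes lay lower. All 11 tested heat shock genes had a negative difference with a median of -0.26 and none at an unadjusted p under 0.05. Without D1 mouse 21 the median was -0.51 with 7 lower, where 1076 of 30240 probes lay lower.

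Transcripts best known from heart, liver and fat set several mice apart. Myh6, the cardiac myosin found also in muscle around the pulmonary veins, lay at 5.95, 5.87, 0.76 and 5.83 in D1 and 6.14, 1.06, 6.44, 6.29 and 6.15 in D2, so that D1 mouse 24 and D2 mouse 28 stood far below the rest. The list of 19 tested cardiac genes had a level of -2.01 to 1.61 in D1 and -2.04 to 0.77 in D2, and a median difference of -0.26 that became 0.22 without D2 mouse 28 and -1.05 without D1 mouse 24. Sln, Myl4, Myl7 and Mb, the other probes on which D2 mouse 28 lay farthest below the other mice, followed the same pattern. Those on which it lay farthest above were Mup19, Kng1, Mup2, Rbm45 and Serpina1e, most of them products of the liver, and D1 mouse 21 was also high in Mup19, Kng1 and Mup2. Of 14 fat genes 10 were tested, all with a negative difference, with levels of -0.50 to 1.53 in D1 and -0.94 to 0.35 in D2. The median was -0.42, and 0.03 without D1 mouse 22. The part of this RNA in the differences above was not tested.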

How the data were processed

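Lung RNA of 9 mice (4 titled D1, 5 titled D2) was measured on Agilent 2-colour arrays, 1 array per mouse, with groups taken from the array titles. The deposited scanner files give spot intensity values as median pixel brightness, which the authors had not normalized, and a further set of intensity values corrected for background and dye by the scanner software. The deposited series table holds log2 ratios that the authors had normalized, and it was used as an alternative only (Pearson r over probes with the ratios computed here 0.995 to 0.998). Software release and scanner differ between the file headers and the study's methods, and were taken from the headers.

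Of 62976 spots per array, 3671 controls and those marked as outliers were not used. Loess with a span of 0.3 was run within each array on median signals, without subtracting background, and spots of a probe were averaged. Probes were tested where red was well above background in at least 4 mice of D1 or of D2, and 12 of these with no spot left in a mouse were dropped, which left 30240 probes (14557 gene symbols). Symbols came from 27235 of 28685 identifiers matched to RefSeq (GRCm38.p6). Median red signals were 118 to 150.5, and 54.6% to 62.0% of red spots per array were well above background. No dyes were swapped.

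The groups were compared with limma 3.58.1 (lmFit and eBayes) in R 4.3.3 on these 9 arrays, in place of the methods' MAANOVA, which was not installed. A call needed a p adjusted after Benjamini-Hochberg to at most 0.05 and a 1.5-fold difference. The 22 genes chosen by name also had a two-sided exact permutation test (SciPy 1.17.1). The scripts were tested on simulated data. Each gene is represented by the probe brightest in red, except where the rule below names probes.

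Named were 22 fixed genes, the 8 largest differences each way among probes without overlap at an unadjusted p under 0.05, up to 8 each way among probes called without D2 mouse 28 or 23, the lowest and highest members of lists described, and the 5 probes on which D2 mouse 28 lay farthest above and below the others. Other members named were those at an unadjusted p under 0.05 or well known in their list, chosen after their values were seen. Members and lists were chosen with earlier results of these data known. Lists were not tested. Some genes that the rule names are not reported here.

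Alternatives were leaving out each mouse and D2 mice 23 and 28, slide as a block, fits with more dose groups, other scalings, background corrections and filters, array weights and a variance trend. D0 and D3 entered only fits named as such.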

Additional observations from a re-analysis of the deposited data

Results flagged for a closer look

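Of 112 groups of values examined with Dixon's test, 13 held a mouse farther from the rest than the 95% critical value. Chance gives about 1 in 20 groups of probes chosen without regard to single mice, and that rate does not apply here. D2 mouse 28 accounted for 6 of the 13, all on probes chosen because it lay far from the others or because they were called without it. Its Ear1 value of 4.8 stood above 2.87 to 3.17 in the other D2 mice, and its Ear10 value of 4.98 above 3.39 to 3.69. In Kng1, a plasma protein made in the liver, it stood at 0.76 against -1.54 to -1.12. In the muscle genes it stood low: at -0.25 in Sln against 4.46 to 5.72, at 1.06 in Myh6 against 6.14 to 6.44, and at 0.36 in Myl7 against 3.61 to 4.70.

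D1 mouse 21 stood high in liver transcripts, with 4.09 in Mup19 against 0.02 to 0.57 in the other D1 mice, 1.94 in Mup2 against -0.16 to -0.14, and 1.01 in Kng1 against -1.36 to -1.22. D1 mouse 24 stood low in Myh6, at 0.76 against 5.83 to 5.95, and in Snap47, at -0.49 against -0.14 to -0.10. D1 mouse 25 stood at 0.81 in Rbm45 against -0.63 to -0.44, and D2 mouse 29 at 0.95 in Srp54a against 0.35 to 0.52.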

How the results depend on the processing

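With all 9 mice and only D1 and D2 in the fit, no processing alternative gave a call. Probes at an unadjusted p under 0.05 numbered 1499 to 3530 with single mice left out (0 calls throughout), 4278 without D2 mice 23 and 28, 209 with median centring in place of loess, and 3782 with slide as a block and without D2 mouse 28. In the other alternatives with all 9 mice the number lay between 2244 and 3303. Fits with more dose groups called probes only without D2 mouse 28. The versions that left out mice were chosen after seeing the data. With all 4 groups there were 58 calls and 4156 probes at an unadjusted p under 0.05, and 160 and 5002 without D2 mouse 23 as well. With D1, D2 and D3 there were 17 and 3943, and 103 and 4781 without D2 mouse 23 as well. The cause was not tested. Of the 37 list medians, 31 kept their sign with median centring, and 32, 20 and 26 had it within slides 1, 2 and 3. No paired analysis was possible because D1 and D2 share no mouse number. Each slide held both groups, and slide as a block gave 2956 probes at an unadjusted p under 0.05 and no call. The number of arrays limits the precision of every value, and without a dye swap, dye bias cannot be told apart from expression in single ratios.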
